A study of Mus musculus with 61 samples.

Results

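The Sono-seq comparison covered the enhancers and promoters of mouse embryonic stem cells, measured in fibroblasts at day 3 of reprogramming with CAF-1 knocked down or with a control knockdown against Renilla luciferase. Every row of the deposited table was used, and each row pairs 1 enhancer with the promoter of 1 gene. The 22594 rows held 14265 distinct enhancers, 5513 promoter start sites and 5155 genes, from 6 of the 61 samples of the series. Of these, 3 libraries are labelled CAF-1 knockdown and 3 are labelled Renilla control knockdown. All 6 came from mouse embryonic fibroblasts of E13.5 embryos (strain Black6-129X1/SvJ) with the genotype Col1a1::tetOP-OKSM and R26-M2rtTA. In these cells doxycycline switches on Oct4, Klf4, Sox2 and Myc. Both groups received 2 ug/ml doxycycline in serum/LIF medium with ascorbate for 3 days. The labels name neither the hairpin nor the CAF-1 subunit for these libraries, and the column headers call the condition a CAF mutant where the labels say knockdown. The table gives 1 value for CAF-1 and 1 for Renilla at each region. No replicate error, test or p-value between the groups was therefore possible, and every difference below is a difference between 2 deposited values.

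CAF-1 is the histone chaperone complex that deposits histones H3 and H4 onto newly replicated DNA. Enhancers are regulatory elements that can lie far from the gene they act on, whereas the promoter surrounds the transcription start. Sono-seq sequences the DNA fragments that sonication releases from cross-linked chromatin, and such fragments come more often from open chromatin. The comparison addresses whether loss of CAF-1 alters accessibility at the regulatory elements of a gene, and the pairing asks whether both ends of an enhancer-promoter pair moved alike. The regions were defined in embryonic stem cells, so in these day 3 cells many may not be active. The values are the authors' own score of unknown scaling and are given here without a unit. Ratios are log2 of CAF-1 over Renilla, so a positive ratio means a higher value in the CAF-1 knockdown.

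Levels were narrow and close to each other in all 4 columns. The median enhancer value was 0.140 in CAF-1 and 0.137 in Renilla, and the median promoter value was 0.141 in CAF-1 and 0.143 in Renilla. The middle 90% of enhancers lay between 0.0927 and 0.191 in CAF-1 and between 0.0941 and 0.182 in Renilla. The log2 ratio had a median of 0.03 and an SD of 0.23 over enhancers, and a median of -0.01 with the same SD of 0.23 over promoters. An absolute log2 ratio of 0.2, a 1.15-fold difference, served as the limit for a difference that is counted below. By that limit 61.0% of enhancers and 63.1% of promoters lay within the limit on either side of 0. Enhancers past the limit made up 22.8% higher and 16.2% lower, and promoters 17.3% higher and 19.6% lower. Genes had a median of 3 enhancers, 1529 genes had 1 enhancer, and Meaf6, whose product is a subunit of histone acetyltransferase complexes, had the most with 72. Of all enhancers, 29.7% were assigned to several genes, up to 28. The median distance between an enhancer and its promoter was 37.9 kb. Coordinates in the table are those of the mm9 build, and a region is a single position with no stated width.

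The promoters of 4 genes in which enhancers and promoter moved alike are shown because they are the highest-ranked such genes with 1 matched RefSeq promoter, and their values are described below. Med21 and U2af1l4 were higher on both sides in the CAF-1 knockdown, and Sf3a3 and Plekhm1 were lower on both sides. Each sequence runs from 250 bases before to 50 bases after the start site in RefSeq's GRCm38.p6, a build other than that of the table, and capitals mark each CG dinucleotide. The Med21 promoter lies at chr6:146642329-146642628 on the plus strand, U2af1l4 at chr7:30563090-30563389 on the plus strand, Sf3a3 at chr4:124714611-124714910 on the plus strand, and Plekhm1 at chr11:103412656-103412955 on the minus strand.
Med21: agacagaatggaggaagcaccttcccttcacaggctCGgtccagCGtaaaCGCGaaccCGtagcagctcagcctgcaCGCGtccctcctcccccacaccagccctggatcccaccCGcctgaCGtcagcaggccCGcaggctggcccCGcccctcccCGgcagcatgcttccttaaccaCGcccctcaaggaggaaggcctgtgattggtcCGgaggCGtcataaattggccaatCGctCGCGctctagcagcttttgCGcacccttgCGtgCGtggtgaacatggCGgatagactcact
U2af1l4: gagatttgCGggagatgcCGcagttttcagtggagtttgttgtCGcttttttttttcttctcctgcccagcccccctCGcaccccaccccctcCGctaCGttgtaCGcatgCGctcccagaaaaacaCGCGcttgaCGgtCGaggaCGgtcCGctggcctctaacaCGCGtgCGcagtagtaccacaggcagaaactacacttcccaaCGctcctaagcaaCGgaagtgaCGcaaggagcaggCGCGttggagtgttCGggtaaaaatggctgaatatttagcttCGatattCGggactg
Sf3a3: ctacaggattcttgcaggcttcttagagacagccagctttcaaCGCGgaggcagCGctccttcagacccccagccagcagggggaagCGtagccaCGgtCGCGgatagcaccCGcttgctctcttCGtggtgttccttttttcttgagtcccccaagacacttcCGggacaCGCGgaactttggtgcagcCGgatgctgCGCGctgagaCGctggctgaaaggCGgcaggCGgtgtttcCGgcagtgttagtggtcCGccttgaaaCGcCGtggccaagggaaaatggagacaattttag
Plekhm1: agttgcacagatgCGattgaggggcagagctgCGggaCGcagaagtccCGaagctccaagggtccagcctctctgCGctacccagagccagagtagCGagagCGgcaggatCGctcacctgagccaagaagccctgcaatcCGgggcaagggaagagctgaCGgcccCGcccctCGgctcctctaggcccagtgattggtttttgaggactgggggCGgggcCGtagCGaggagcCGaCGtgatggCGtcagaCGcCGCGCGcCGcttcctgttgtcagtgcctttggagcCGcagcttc
All 4 are rich in CG dinucleotides, with 22 in Med21, 25 in U2af1l4, 22 in Sf3a3 and 24 in Plekhm1, against a median of 22 over the 3206 genes with a single matched RefSeq promoter. The 2 promoters that were higher in CAF-1 and the 2 that were lower did not separate by this count. Over the 3206 genes the promoter log2 ratio had a Spearman correlation of -0.03 with the number of CG dinucleotides, given as a description across genes that share the same libraries. The GC box, searched as GGGCGG on both strands, occurred in 72.1% of these promoters and in 35.2% of all 22862 RefSeq promoters of the same length. It was present in Med21 and Plekhm1 and not found in the windows of U2af1l4 and Sf3a3. The median log2 ratio was -0.01 in the 2313 promoters with a GC box and -0.01 in those without. The octamer, searched as ATGCAAAT on both strands, occurred in 2.15% of the matched promoters and in 1.82% of all RefSeq promoters. The median ratio was -0.04 in the 69 promoters with it and -0.01 in those without. The SOX core, searched as CTTTGT on both strands, occurred in 13.1% of the matched promoters and in 19.1% of all. The median ratio was -0.03 in the 421 promoters with it and -0.01 in those without. Neither motif contains the other or the GC box, and all 3 gaps are small beside the SD of 0.23 over promoters.

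The enhancer and promoter ratios of a gene showed almost no relation. Each gene was given the mean log2 ratio of its distinct enhancers and the mean of its distinct start sites. Over 5155 genes the Pearson correlation of the 2 means was 0.03 and the Spearman correlation was 0.01. Genes are not independent replicates here, since they share the 6 libraries and many share enhancers. Enhancer and promoter had the same sign in 2570 genes, or 49.9% (exact 95% binomial interval 48.5 to 51.2%). If the sides were independent, the shares of genes above 0 on each side (60.1% for enhancers and 48.1% for promoters) would by multiplication give 49.6%. Both sides were higher in CAF-1 in 1496 genes and both lower in 1074. The enhancers were higher and the promoter lower in 1600 genes, and 985 genes had the opposite combination. The levels behaved otherwise than the ratios. Genes with a high promoter value also had high enhancer values, with a Pearson correlation of 0.47 between the log2 levels of both sides over the same genes. Intervals here and below cover counting error only and take genes or pairs as independent, which neighbouring ones are not.

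**Figure D1:**
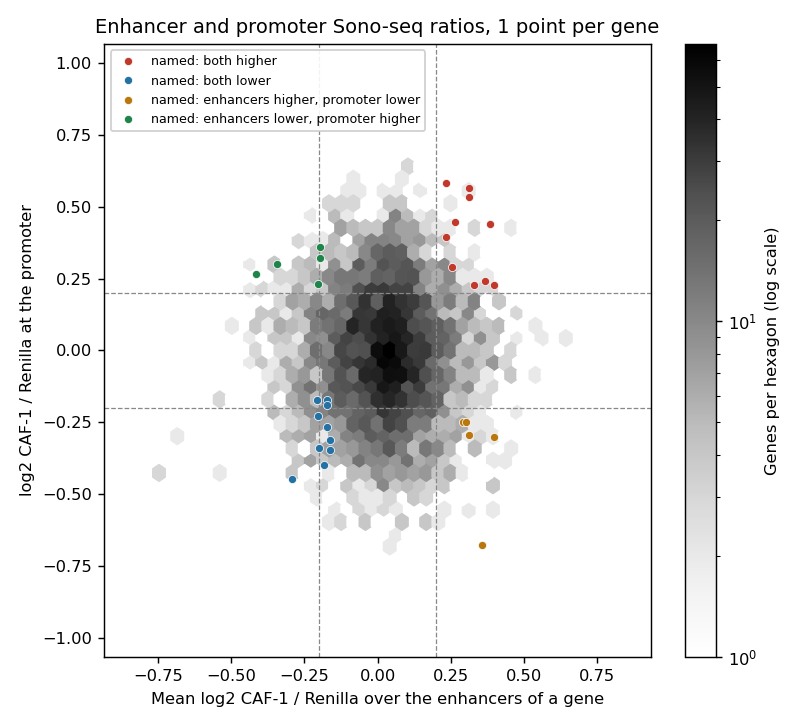
Each hexagon is shaded by its number of genes on a log scale. The x axis is the mean log2 CAF-1 over Renilla ratio of a gene's enhancers and the y axis that of its promoter. Dashed lines mark log2 ratios of -0.2 and 0.2, and coloured points are the 30 genes named by rule. The cloud has no tilt, with a Pearson correlation of 0.03 over 5155 genes.

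The number of enhancers per gene did not bring the sides together. The correlation was 0.05 in the 1529 genes with 1 enhancer, -0.01 in the 1723 genes with 2 or 3, -0.01 in the 984 genes with 4 to 6 and 0.07 in the 919 genes with 7 or more. The share of genes with the same sign was 51.5%, 49.2%, 47.3% and 51.0% over the same 4 classes. The spread of the enhancer mean fell with the number averaged, with an SD of 0.24 for 1 enhancer and 0.08 for 7 or more, whereas the promoter SD stayed between 0.22 and 0.24.

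Of all genes, 103 were higher by at least 0.2 on both sides in CAF-1, which is 2% of those measured, and 113 were lower by at least 0.2 on both sides, which is 2.19%. The background on each side was 12.3% of genes with higher enhancers, 8.83% with lower enhancers, 17.2% with a higher promoter and 19.4% with a lower promoter. Multiplied, these shares give 108.7 genes higher on both sides and 88.2 genes lower on both sides. The count of genes higher on both sides was thus near the product, and that of genes lower on both sides was above it. Of the 455 genes with lower enhancers, 24.8% also had a lower promoter (exact 95% binomial interval 20.9 to 29.1%), against 19.4% of all genes. Of the 633 genes with higher enhancers, 16.3% also had a higher promoter (13.5 to 19.4%), against 17.2% of all genes. Opposite movement past the limit occurred in 136 genes with enhancers higher and promoter lower, or 2.64%, against a product of 122.7. The converse occurred in 71 genes, or 1.38%, against a product of 78.1. The 113 genes lower on both sides came from 104 loci and the 103 genes higher on both sides from 94, where genes with start sites within 5 kb form a locus.

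The excess among genes lower on both sides was seen at each setting tried, and all settings reuse the same deposited values. The count exceeded its product in 10 of 10 alternatives, in which the count higher on both sides exceeded its product in 3 of 10. At a limit of 0.3 there were 22 genes higher on both sides (0.427%) against a product of 21.3, and 30 genes lower on both sides (0.582%) against 18.9. Genes with enhancers higher and the promoter lower were above their product too, with 35 (0.679%) against 26.8. The converse had 15 (0.291%) against 15.0. The excess was thus not particular to genes lower on both sides. At a limit of 0.1 there were 476 higher (9.23%) against 470.9 and 386 lower (7.49%) against 351.0. Genes past the limit on both sides had few enhancers in every combination. The share with 1 enhancer was 56.3% in genes higher on both sides, 65.5% in genes lower on both sides, 52.9% where enhancers were higher and the promoter lower, 69.0% in the converse, and 29.7% over all genes. The median enhancer value was 0.124 in genes lower on both sides and 0.123 where enhancers were lower and the promoter higher. It was 0.140 in genes higher on both sides, 0.133 where enhancers were higher and the promoter lower, and 0.137 over all genes. The median promoter value was lowest in genes lower on both sides, at 0.131, against 0.137 to 0.146 in the other combinations and 0.142 over all genes. The spread of the ratio was wider at low levels, as given below, and the part of level in the excess was not tested beyond the alternative that kept regions above the median level. There 28 of 2039 genes (1.37%) were lower on both sides against a product of 0.936%, and 71 (3.48%) were higher on both sides against a product of 3.17%, so with this filter the larger count was the higher one.

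The genes with the clearest movement on both sides were taken from the 1246 genes with at least 2 enhancers and with levels above the median on both sides. They were ranked by the weaker of the 2 ratios, so the signs of a ranked gene's enhancer mean and promoter followed from the choice. Most of the ranked genes had 2 or 3 enhancers, so the signs of single enhancers followed in large part too. Counts of enhancers by sign are therefore no separate evidence of agreement. All 10 top genes on the higher side were past 0.2 on both sides, and their 22 distinct enhancers were all higher in CAF-1. These enhancers lay 3.40 to 103 kb from the promoter.

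Med21, a subunit of the Mediator complex that links transcription factors to RNA polymerase II, ranked first. Its 3 enhancers had values of 0.159, 0.199 and 0.148 in CAF-1, against 0.131, 0.134 and 0.119 in Renilla. The promoter had 0.179 in CAF-1 and 0.132 in Renilla. The log2 ratios were 0.27, 0.57 and 0.31 at the enhancers and 0.44 at the promoter, so all 4 regions were higher. The enhancers lie 16.1 to 30.9 kb from the start site. Over all assigned enhancer-promoter pairs 20 to 50 kb apart, 49.4% had the same sign.

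Psenen, which encodes a subunit of the gamma-secretase protease, and U2af1l4, which encodes a relative of a splicing factor that recognises the 3′ splice site, followed. Their start sites lie 155 bp apart and they share the same 2 enhancers, so they count as 1 locus. The Psenen promoter had 0.182 in CAF-1 and 0.126 in Renilla, and the U2af1l4 promoter had 0.186 in CAF-1 and 0.126 in Renilla. The shared enhancers had 0.20 and 0.21 in CAF-1, against 0.17 and 0.16 in Renilla. Ratios were 0.53 at Psenen, 0.56 at U2af1l4, and 0.27 and 0.35 at the enhancers, which stand 41.4 and 44.3 kb from Psenen and 2.9 kb from each other.

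Glrx5, a mitochondrial glutaredoxin needed for iron-sulfur clusters, had the most enhancers of the top genes, and all 5 were higher. Their ratios were 0.10, 0.32, 0.29, 0.32 and 0.25, with a mean of 0.25 and an SD of 0.09. The promoter had 0.186 in CAF-1 and 0.152 in Renilla, a ratio of 0.29. The enhancers 3.90 and 5.50 kb from the start site lie on the same side of it, within the range in which neighbouring enhancers agreed, as given below. Snhg10, whose start site lies 409 bp away, shares 4 enhancers with Glrx5. Snhg10 had 0.18 at its promoter and a mean of 0.11 over its enhancers, both below the limit. Gatsl3, a gene of the arginine-sensing CASTOR family, and Tbc1d10a, which encodes a GTPase-activating protein for Rab proteins, share 3 enhancers with ratios of 0.05, 0.18 and 0.47. The Gatsl3 promoter had 0.173 in CAF-1 and 0.132 in Renilla. The Tbc1d10a promoter had 0.175 in CAF-1 and 0.117 in Renilla, a ratio of 0.58 that was the highest promoter ratio among the 10 genes. Only the enhancer farthest from Tbc1d10a, 28.0 kb away, passed the limit, and the same enhancer lies 3.40 kb from Gatsl3. With the median over enhancers in place of the mean, both genes had 0.18, below the limit.

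The other 4 genes were Aars2, the mitochondrial alanyl-tRNA synthetase, Sertad3, Irf9 and Wdr4. Aars2 had enhancer ratios of 0.12 and 0.40 and a promoter ratio of 0.45. Irf9, a transcription factor of the interferon response, had enhancer values of 0.156 and 0.223 in CAF-1, against 0.116 and 0.173 in Renilla. Its 2 start sites differed in ratio, with 0.28 and 0.17. Wdr4, a subunit of a tRNA methyltransferase, had enhancer ratios of 0.15, 0.39 and 0.44 and a promoter ratio of 0.23. Sertad3 had enhancer ratios of 0.26 and 0.47 and a promoter ratio of 0.24.

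**Figure D2:**
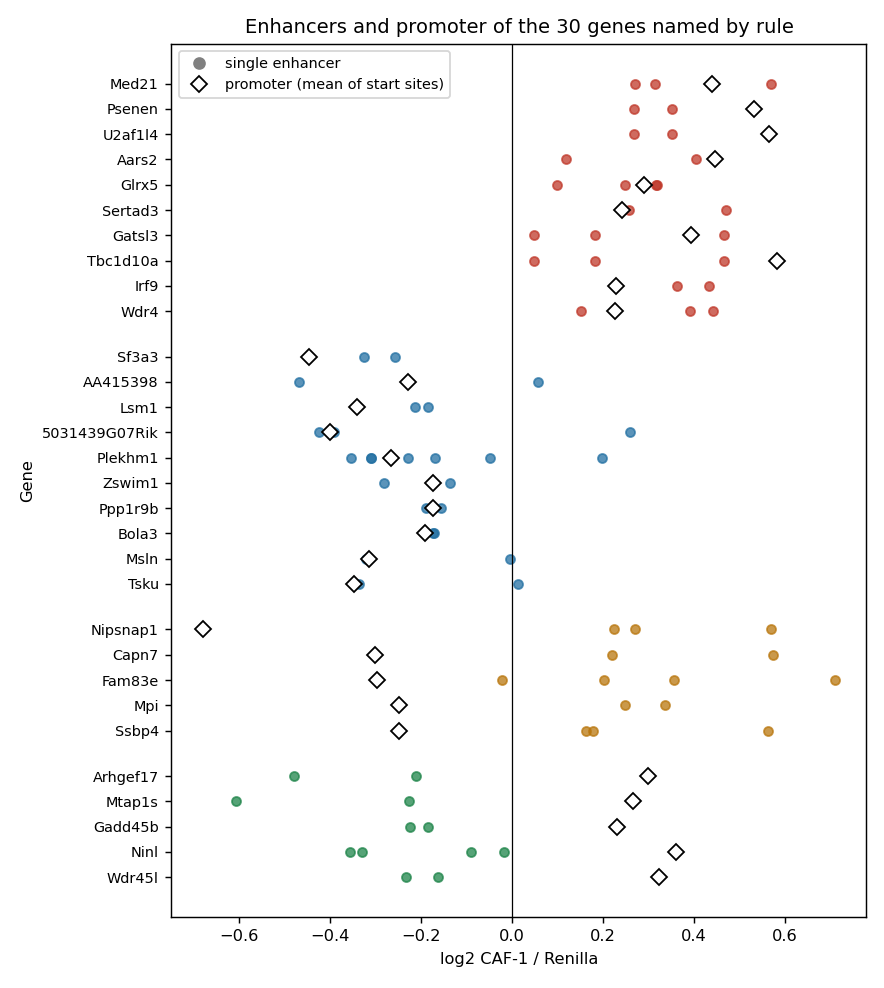
Rows are the 30 genes named by rule, in 4 blocks for both sides higher, both lower, enhancers higher with promoter lower, and enhancers lower with promoter higher. Filled circles are single enhancers and open diamonds the promoter, on the log2 CAF-1 over Renilla axis. All enhancers of the first block lie right of 0, whereas 4 of the 10 genes in the second block have an enhancer on the other side of 0.

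On the lower side, differences were smaller at these levels, and 2 of the 10 top genes, Sf3a3 and AA415398, were past 0.2 on both sides. Their 26 distinct enhancers included 22 that were lower in CAF-1, and in 6 of the 10 genes every enhancer was lower. These counts, too, followed in large part from the ranking. Sf3a3, a subunit of the SF3a splicing complex of the U2 small nuclear ribonucleoprotein, ranked first. Its promoter had 0.163 in CAF-1 and 0.222 in Renilla, a ratio of -0.45. Its 2 enhancers, 62.6 and 81.2 kb away, had 0.127 and 0.125 in CAF-1, against 0.158 and 0.15 in Renilla, so all 3 regions were lower. AA415398 had enhancer ratios of -0.47 and 0.06, so its mean of -0.20 rested on 1 of its 2 enhancers, and its promoter ratio was -0.23. The neighbouring start site of Foxj3, 918 bp away and with the same 2 enhancers, had -0.18.

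Lsm1, part of the Lsm ring that acts in mRNA decay, had a promoter value of 0.127 in CAF-1 and 0.161 in Renilla. Its enhancers had ratios of -0.21 and -0.18. The promoter of Bag4, whose start site lies 381 bp away, had a ratio of -0.43. Promoter pairs less than 0.5 kb apart had a correlation of 0.97, so the 2 promoters are not separate measurements. Bag4 shares 2 enhancers with Lsm1, but the mean over all enhancers of Bag4 was -0.07. Plekhm1, an adaptor in the fusion of late endosomes and autophagosomes with lysosomes, had the most enhancers of the 10 genes. Of its 7 enhancers 6 were lower, with ratios between -0.35 and -0.05, and the one 43.3 kb away was higher at 0.20. Its promoter had 0.139 in CAF-1 and 0.167 in Renilla, a ratio of -0.26.

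The remaining genes of the lower side were 5031439G07Rik, Zswim1, Ppp1r9b, Bola3, Msln and Tsku. Bola3, a mitochondrial iron-sulfur cluster factor, and Ppp1r9b, which encodes the actin-binding scaffold spinophilin, had the closest values between regions. The enhancers of Bola3 had ratios of -0.17 and -0.17 and its promoter -0.19. The enhancers of Ppp1r9b had -0.19 and -0.16 and its promoter -0.17. In Msln, the gene for mesothelin, and Tsku, the gene for the secreted protein tsukushi, 1 of the 2 enhancers was near 0, at 0.00 and 0.01. The promoter ratios were -0.31 in Msln and -0.35 in Tsku. In 5031439G07Rik the enhancer 175 kb away had 0.26, against -0.39 and -0.42 at the enhancers 8.4 and 12.0 kb away and -0.40 at the promoter. Zswim1 had -0.13 and -0.28 at its enhancers and -0.17 at its promoter.

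Opposite movement reached similar sizes. Nipsnap1, a mitochondrial protein gene, had a promoter value of 0.117 in CAF-1 and 0.187 in Renilla, a ratio of -0.68. Its enhancers 6.40, 9.0 and 80.1 kb away had ratios of 0.57, 0.27 and 0.22, so all 3 were higher where the promoter was lower. Capn7, Fam83e, Mpi and Ssbp4 were the other genes with higher enhancers, with enhancer means between 0.29 and 0.40 and promoter ratios between -0.30 and -0.25. With the median over enhancers Ssbp4 had 0.18, below the limit. Mpi encodes the mannose-phosphate isomerase, and its enhancer 3.81 kb from the promoter had a ratio of 0.25 while the promoter had -0.25.

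In the other direction, Ninl, a centrosomal gene, had 4 enhancers with ratios of -0.02, -0.33, -0.36 and -0.09. Its promoter had 0.183 in CAF-1 and 0.142 in Renilla, a ratio of 0.36. Gadd45b, a gene of the stress-response Gadd45 family, had 0.213 at the promoter in CAF-1 and 0.181 in Renilla, a ratio of 0.23. Its enhancers had -0.18 and -0.22. Arhgef17, Mtap1s and Wdr45l had enhancer means of -0.34, -0.42 and -0.20, with promoter ratios of 0.30, 0.27 and 0.32.

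Enhancers of the same gene were nearly as different from each other as enhancers of different genes. Over 2598 genes with at least 3 enhancers, the SD of the log2 ratio within a gene was 0.23, the same as over all enhancers. The share of the variance that lay between genes was 2.55%. All enhancers had the same sign in 287 of these genes, or 11.0% (9.87 to 12.3%), of which 189 had all higher and 98 all lower. Over all distinct enhancers 55.3% were higher in CAF-1. The share of one-sign genes that independent enhancers would give was not computed, so these counts are no evidence that enhancers moved together. Of the 919 genes with 7 or more enhancers, 11 had all of one sign, and they are named here after their values were seen. Srm, which encodes spermidine synthase, had 10 of 10 enhancers higher with a mean of 0.18 and an SD of 0.11. Its promoter went the other way, with 0.134 in CAF-1 and 0.193 in Renilla, a ratio of -0.53. Vps37b, a subunit of the ESCRT-I sorting complex, had 8 of 8 enhancers higher with a mean of 0.28, and a promoter ratio of 0.27.

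Tcfcp2l1, a transcription factor of the embryonic stem cell network, had 7 of 7 enhancers lower with a mean of -0.19 and an SD of 0.20. Its promoter had 0.115 in CAF-1 and 0.147 in Renilla, a ratio of -0.36. The one other gene with all enhancers lower was Ctnna1, the gene for alpha-catenin, with 9 of 9 and a mean of -0.15, while its promoter had -0.06. The remaining 7 of these genes had all enhancers higher. In Ccdc88c, Mdc1, Ccdc141, Gm10069 and Fkbp4 the promoter was higher too, with ratios between 0.08 and 0.32, and in Ppp2r5a and Pfdn1 the promoter was lower, at -0.21 and -0.12. Gm10069 and Fkbp4 have the same enhancers, so the 11 genes hold 10 separate sets. The enhancer mean and the promoter had the same sign in 51.0% of all 919 genes with 7 or more enhancers. Meaf6, with the most enhancers, had 47 of 72 higher, a mean of 0.10 with an SD of 0.29, and a promoter ratio of -0.19.

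Neighbouring enhancers agreed only at very short range. Pairs of enhancers less than 1 kb apart had a Pearson correlation of 0.77 between their log2 ratios (25 pairs), and pairs 1 to 2 kb apart had 0.60 (99 pairs). From 2 to 5 kb the correlation was 0.17 over 2723 pairs, and 55.2% had the same sign (53.3 to 57.1%). From 5 to 10 kb it was 0.02 over 4177 pairs, with the same sign in 52.2% (50.7 to 53.7%). Beyond that, up to 5 Mb, it was 0.01 in each longer class of distance. In steps of 0.5 kb the correlation was 0.33 at 2 to 2.5 kb, 0.24 at 3 to 3.5 kb, 0.09 at 4 to 4.5 kb and 0.04 at 4.5 to 5 kb. The width of a region is not stated and close regions may share reads, which was not tested. The median absolute difference between 2 enhancers was 0.08 under 1 kb, 0.19 at 2 to 5 kb and 0.21 at 5 to 10 kb.

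**Figure D3:**
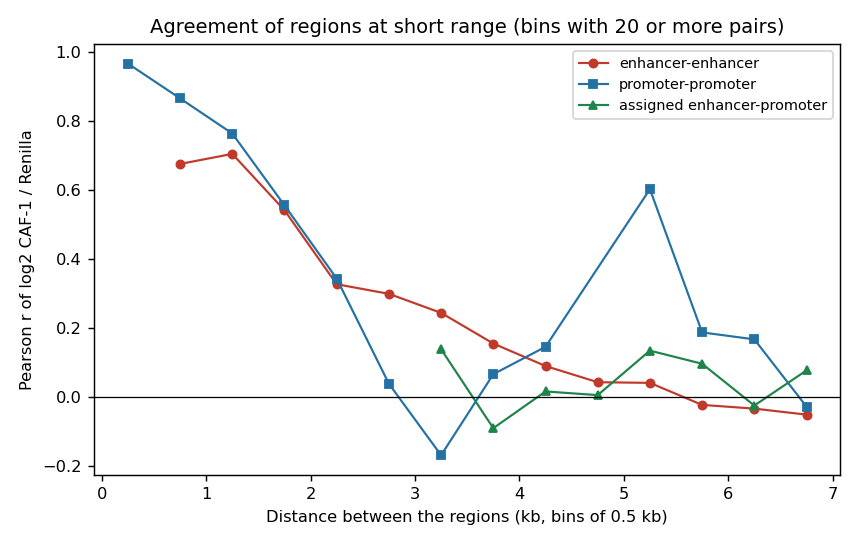
The Pearson correlation of log2 CAF-1 over Renilla ratios is plotted against the distance between regions in steps of 0.5 kb, for pairs of enhancers (circles), pairs of promoters (squares) and assigned enhancer-promoter pairs (triangles), where a step has 20 or more pairs. Enhancer pairs decline to 0.04 at 4.5 to 5 kb. The promoter value of 0.60 at 5 to 5.5 kb rests on 31 pairs, of which 48.4% had the same sign.

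Enhancers that share a gene and those that do not both had correlations near 0 beyond 10 kb, and the difference between them was not tested. Enhancers 10 to 20 kb apart had a correlation of 0.02 where they were assigned to a common gene (7121 pairs) and 0.01 where they were not (419 pairs). At 20 to 50 kb the values were 0.00 over 15680 pairs with a common gene and 0.02 over 2368 pairs without. At 200 to 500 kb they were 0.03 over 7630 pairs with a common gene and 0.00 over 56526 pairs without, and at 500 kb to 1 Mb they were -0.08 over 875 pairs with and 0.01 over 86277 pairs without. Promoter pairs had a correlation of 0.97 below 0.5 kb (687 pairs), 0.34 at 2 to 2.5 kb (40 pairs), 0.04 at 2.5 to 3 kb (34 pairs) and -0.17 at 3 to 3.5 kb (27 pairs). Enhancer pairs had 0.30 at 2.5 to 3 kb (388 pairs), and the difference between the 2 kinds of pair was not tested.

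Assigned enhancer-promoter pairs also agreed at very short range. At 2 to 5 kb, given below, their correlation was lower than the 0.17 of enhancer pairs, a difference that was not tested. All 13 pairs closer than 2 kb had the same sign, with a correlation of 0.99 in both the 6 pairs under 1 kb and the 7 pairs at 1 to 2 kb. The pairs of Mir293, Mir294 and Mir295, all at 1 to 2 kb, hold the same enhancer and neighbouring start sites, so they are not separate loci. In the closest pair, that of Mir210, the enhancer lies 8 bp from the start site and both regions carry identical values, 0.199 in CAF-1 and 0.179 in Renilla. Tgif1, which encodes a homeobox corepressor of TGF-beta signalling, has an enhancer 83 bp from its start site. The enhancer had 0.121 in CAF-1 and 0.143 in Renilla, and the promoter 0.120 in CAF-1 and 0.142 in Renilla. Whether both entries draw on the same reads was not tested. From 2 to 5 kb the correlation was 0.02 over 1202 assigned pairs, and 51.2% had the same sign (48.3 to 54.0%). Within that class the shortest steps had higher values, with 0.61 at 2.5 to 3 kb (13 pairs, 61.5% of the same sign), 0.14 at 3 to 3.5 kb (241 pairs, 58.1%) and -0.09 at 3.5 to 4 kb (338 pairs, 48.5%). At 5 to 10 kb it was 0.04 over 2427 pairs, with the same sign in 50.1% (48.1 to 52.2%), and at 50 to 100 kb it was 0.00 over 4716 pairs. Pairs that the table does not assign to each other had -0.01 at 2 to 5 kb (89 pairs), -0.04 at 5 to 10 kb (274 pairs), 0.06 at 20 to 50 kb (3322 pairs) and 0.03 at 50 to 100 kb (7015 pairs). The intervals of the same-sign share of assigned and unassigned pairs overlapped in each class of distance from 2 to 500 kb.

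**Figure D4:**
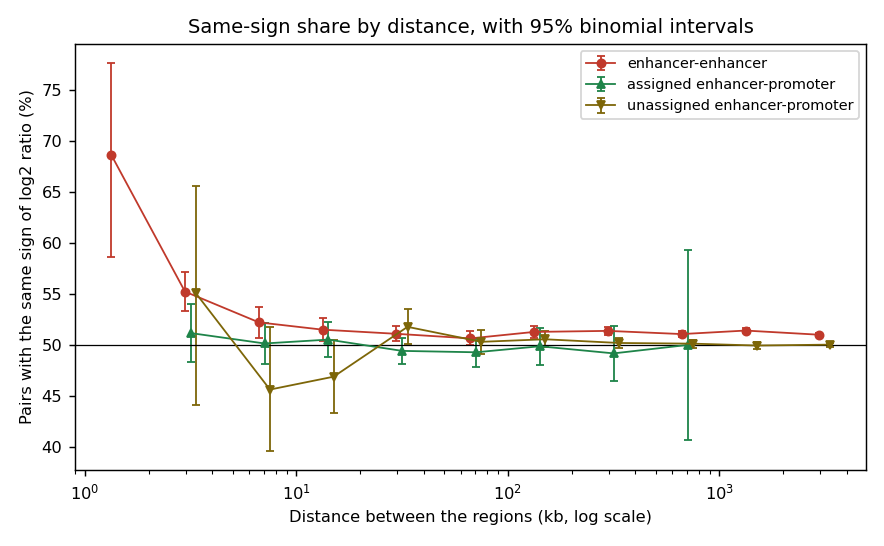
The percentage of pairs with the same sign of log2 CAF-1 over Renilla ratio is plotted against distance on a log axis, for enhancer pairs, assigned enhancer-promoter pairs and unassigned enhancer-promoter pairs in classes with 80 or more pairs. Bars are exact 95% binomial intervals and the line marks 50%. Enhancer pairs start at 68.7% for 1 to 2 kb and lie near 51% from 10 kb on, and assigned pairs are near 50% in the classes from 2 to 5 kb on.

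On the scale of megabases the median enhancer ratio of a window had an SD of 0.07 over 529 windows of 1 Mb with at least 10 enhancers each, and the windows at either end are described here for their position in that ranking. The highest median was on chromosome 5 at 124 to 125 Mb (mm9). There 14 of 17 enhancers were higher, with a median log2 ratio of 0.30 and a range of -0.26 to 0.49. Of the 10 enhancers assigned to Vps37b or to Hip1r, an adaptor of clathrin-coated vesicles, 9 were higher. The 9 promoters in the window had a median of -0.04, so they did not follow. The next windows were also on chromosome 5, at 148 to 149 Mb (Pan3, Lnx2 and Pomp, 8 of 12 enhancers higher, median 0.24) and at 140 to 141 Mb (Mad1l1, Snx8, Nudt1 and others, 19 of 22 higher, median 0.22). The lowest window was on chromosome 11 at 103 to 104 Mb, around Plekhm1 and Hexim1, with 2 of 10 enhancers higher and a median of -0.27. Its 3 promoters had a median of -0.12. On chromosome 13 at 20 to 21 Mb, 2 of 13 enhancers were higher, all 13 assigned to the cell migration gene Elmo1, with a median of -0.19. The spread within a window, a median SD of 0.22, was as wide as that over all enhancers, and the medians of 436 windows with at least 3 promoters had a Pearson correlation of 0.10 between enhancers and promoters.

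The remaining window of the 3 lowest, chromosome 7 at 3 to 4 Mb, holds the miR-290 cluster, the main microRNA cluster of mouse embryonic stem cells, together with Myadm. In this window 3 of 11 enhancers were higher and the median was -0.23, while the 17 promoters had a median of -0.02. The cluster is shown because several of its members carry one seed, the bases 2 to 8 that pair with target RNAs, marked in capitals. The mature sequences are those of RefSeq.
mmu-miR-291a-3p: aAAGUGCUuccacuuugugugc
mmu-miR-294-3p: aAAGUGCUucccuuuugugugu
mmu-miR-295-3p: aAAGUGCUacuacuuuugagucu
The seed AAGUGCU is shared by these 3 of the 13 mature microRNAs matched to the cluster. The start sites of the 7 microRNA genes from Mir290 to Mir295 had ratios close to 0 at one end, with -0.03 at Mir290, 0.02 at Mir291a, 0.03 at Mir292 and 0.06 at Mir291b. At the other end the ratios were -0.12 at Mir293, -0.12 at Mir294 and -0.15 at Mir295. Each of these start sites lies within 1 kb of the next. Promoter pairs that close had a correlation of 0.95 (831 pairs), so the 7 ratios are not separate measurements. The Mir295 start site had 0.136 in CAF-1 and 0.151 in Renilla. Of the 5 enhancers assigned to the cluster, the one 1.23 kb from Mir295 had 0.118 in CAF-1 and 0.138 in Renilla, a ratio of -0.23. The others had 0.43 at 27.7 kb, 0.02 at 13.7 kb, -0.23 at 9.93 kb and -0.06 at 13.3 kb. The highest of these stood at a low level, 0.0636 in CAF-1 and 0.0471 in Renilla. All 5 enhancers assigned to Myadm in the window were lower, between -0.46 and -0.08.

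Whole chromosomes differed little. Over the 20 chromosomes the median enhancer ratio lay between -0.03 and 0.05 and the median promoter ratio between -0.07 and 0.03. Chromosome X was lowest on both sides, with -0.03 over 162 enhancers and -0.07 over 139 promoters. The Pearson correlation between the enhancer and the promoter median over chromosomes was 0.45 with X and 0.12 without it, so it rested on X.

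The ratio moved with the level of a region. Enhancers in the lowest decile of mean level had a median ratio of -0.02, and those in the highest had 0.08, with 47.0% and 64.7% of enhancers higher in CAF-1. In promoters the medians were -0.04 in the lowest decile and 0.04 in the highest. This ranking uses the same values as the ratio, and its direction depended on that. Ranked by the Renilla value alone, the enhancer median was 0.15 in the lowest decile and -0.08 in the highest. Ranked by the CAF-1 value alone it was -0.17 in the lowest and 0.20 in the highest. The level of the other side of a gene is free of this coupling where the regions do not overlap. Over 5 equal classes of promoter level, the share of genes with higher enhancers was 52.1%, 56.6%, 59.7%, 65.3% and 66.5%, with median enhancer ratios of 0.01, 0.02, 0.03, 0.05 and 0.04. The exact 95% binomial intervals were 49.0 to 55.2% in the lowest class and 63.6 to 69.4% in the highest. Over 5 equal classes of enhancer level the share of genes with a higher promoter was 47.3%, 43.8%, 50.4%, 49.0% and 50.0%, with no such order. The Spearman correlation over all genes was 0.10 for the enhancer ratio with promoter level and 0.05 for the promoter ratio with enhancer level. Genes with a high promoter value therefore had enhancers that were more often higher in CAF-1, whereas the promoter ratio itself did not follow the enhancer ratio.

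The spread of the ratio also followed the level. Its SD, from the quartiles, was 0.28 in the lowest decile of enhancers and 0.19 in the highest, while the level was 1.89 times higher. The variance times the level lay between 0.00642 and 0.00745 in all 10 deciles of enhancers and between 0.00572 and 0.00734 in all 10 of promoters. The read depth behind the values is unknown, so a counting error for single regions was not computed, and no deposited value bears on the spread between the 3 libraries of a condition.

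**Figure D5:**
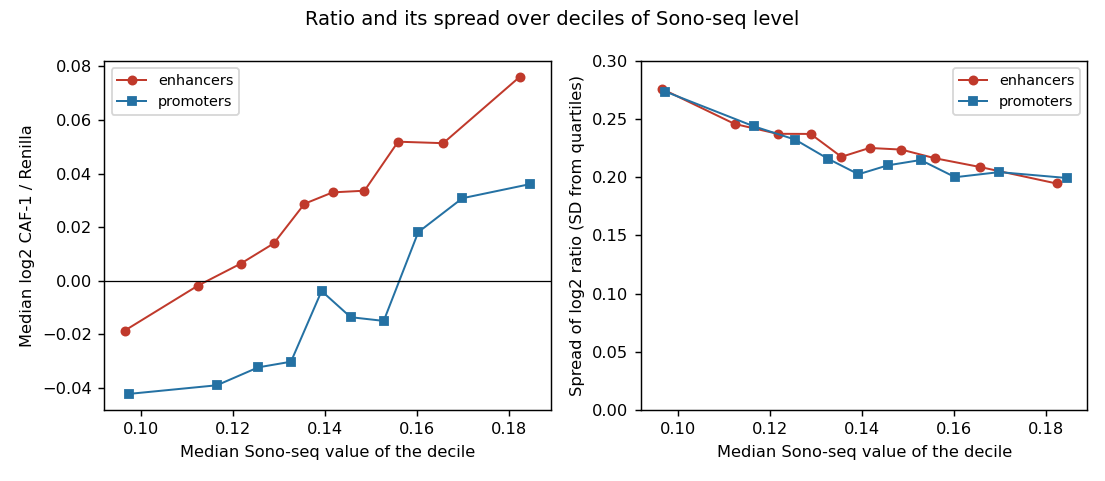
Deciles of mean Sono-seq value are plotted for enhancers (circles) and promoters (squares), with the median log2 CAF-1 over Renilla ratio in the left panel and the spread of the ratio in the right panel. The median rises with level in both region types, and the enhancer spread is 0.28 in the lowest decile and 0.19 in the highest.

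Of the gene lists that bear on reprogramming and on CAF-1, none had many genes that moved on both sides. Unlike the ranked genes, genes of the lists did not have to have 2 enhancers or levels above the median. Over all 5155 genes 103 were past 0.2 and higher on both sides (2%), 113 lower on both sides (2.19%) and 207 past it in opposite directions. Enhancer and promoter had the same sign in 18 of the 34 pluripotency genes in the table (8 both higher and 10 both lower), or 52.9%. The median was 0.02 over their enhancers and -0.05 over their promoters, against 0.03 and -0.01 over all genes. A higher promoter was found in 13 of the 34, against 48.1% of all genes. Fbxo15, a reporter gene of pluripotency that Oct4 and Sox2 activate, was the one pluripotency gene past the limit on both sides. Its enhancers had 0.143, 0.110 and 0.104 in CAF-1, against 0.142, 0.0867 and 0.0810 in Renilla. Its promoter had 0.131 in CAF-1 and 0.106 in Renilla, a ratio of 0.31. The enhancers at 0.34 and 0.36 lie 2.0 kb apart, within the range in which neighbours agreed.

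The table held 13 of the 30 epithelial genes and 9 of the 44 fibroblast genes on the lists. None of these was past the limit on both sides. Over all genes 2% were higher and 2.19% lower on both sides, so none among so few genes says little. Epithelial promoters had a median ratio of 0.12, with 9 of 13 higher where 48.1% of all genes had a higher promoter, and epithelial enhancers had 0.04. Fibroblast enhancers had a median of 0.08 and fibroblast promoters 0.03. Among 14 histone chaperone and chromatin assembly genes, Nasp, a chaperone of histones H3 and H4, was lower on both sides. Its 2 start sites had 0.0853 and 0.0840 in CAF-1, against 0.119 and 0.115 in Renilla. Both CAF-1 values lay below 0.0925, the 5th percentile of that column, and the ratio was more spread at low levels. Of the 4 Nasp enhancers 2 had -0.59 and -0.44 and the others 0.07 and 0.01, so the mean of -0.24 rested on 2 of them. None of the 22 heterochromatin and Polycomb genes passed the limit on both sides, and their median was 0.06 over enhancers and -0.02 over promoters.

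Among 25 genes of chromatin remodelling and coactivators, Smarce1, a subunit of the BAF remodelling complex, had 1 enhancer with 0.0988 in CAF-1 and 0.144 in Renilla. Its promoter had 0.0986 in CAF-1 and 0.133 in Renilla, so both regions were lower, with ratios of -0.54 and -0.43. Arid1a, another BAF subunit, went opposite ways, with enhancer ratios of 0.30 and 0.19 and a promoter ratio of -0.36. Ep400, the ATPase of the Tip60 complex, had an enhancer at 0.50 and its promoter, 3.56 kb away, at -0.21. Of 36 replication and cell cycle genes, 10 had a higher promoter where 48.1% of all genes did. Their median promoter ratio was -0.06 and their median enhancer ratio 0.03. Whether this list differs from other genes was not tested. Among them Mcm10 and Orc6l were past the limit with opposite signs. Mcm10, which takes part in the start of replication, had enhancer ratios of 0.23, -0.04 and 0.45, a mean of 0.22, and a promoter ratio of -0.25. Orc6l, a subunit of the origin recognition complex, had 0.21 at its enhancer and -0.42 at its promoter. The promoter of Vps35, 134 bp away, had -0.42 too, and promoters this close are not separate measurements. With each region type centred on its own median, the enhancer means of Mcm10 and Orc6l were both 0.19, below the limit.

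Of 41 genes of FGF, TGF-beta, BMP and Wnt signalling, Spry2, an inhibitor of receptor tyrosine kinase signalling, was lower at each of its 4 regions. Its promoter had 0.0921 in CAF-1 and 0.118 in Renilla, a ratio of -0.36. The enhancers 5.14, 5.86 and 26.8 kb away had 0.115, 0.0872 and 0.108 in CAF-1, against 0.136, 0.119 and 0.132 in Renilla, with ratios of -0.24, -0.45 and -0.29. All 8 of these values lay below the median of their own column.

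Whether Sox2 binding at both ends went with closer movement could not be decided, because few genes had it and the intervals below are wide. In the 3 deposited lists of Sox2 positions at day 3, which come from 1 immunoprecipitate for each of 2 hairpins against the CAF-1 subunit Chaf1a and 1 for Renilla, 111 genes had a position within 500 bp of an enhancer and of the promoter. Enhancer and promoter had the same sign in 59 of them, or 53.2% (43.4 to 62.7%), against 49.5% of 3781 genes with Sox2 at neither. The 140 pairs with Sox2 at the enhancer and at its own promoter had a Pearson correlation of 0.09 and the same sign in 55.0% (46.4 to 63.4%). The 111 genes had medians of -0.01 over enhancers and -0.06 over promoters, against 0.04 and -0.01 for genes with Sox2 at neither. They also had more enhancers, with a median of 5 per gene against 2.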

How the data were processed

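Sono-seq was deposited as 1 table in which each row gives an enhancer, a transcript start site, and 1 value for CAF-1 and 1 for Renilla at both. The deposited values have no stated unit or scaling, per the file headers, and each was handled as a score. Neither the read depth nor the step from 3 libraries to 1 value is given in the sources used here. The tools BWA 0.7.8 and Bowtie and the genome build mm9 are listed per the submitters' processing notes, which assign them no step. The enhancer and promoter coordinates come from a published embryonic stem cell set, per the file headers. The Sox2 lists deposited by the authors were used for positions only, and their score was not used.

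Ratios were log2 of CAF-1 over Renilla without a pseudocount. Distinct enhancers and distinct start sites were averaged per gene. In 136 rows a symbol that had become a date was restored through its transcript. Of 5510 transcripts 5411 matched RefSeq. The limit was 0.2. Named genes had at least 2 enhancers and levels above the median on both sides, and the 10 highest, the 10 lowest and 5 of each opposite kind by the weaker ratio were taken, with every listed gene past the limit on both sides and the 3 highest and 3 lowest windows. The members and the 8 gene lists were chosen with earlier results of these data known. Tests between libraries were planned for a table with 1 value per library and could not be made. Alternatives changed the scaling, level filter, pseudocount, enhancer choice, distance, limit and gene unit. The correlation code was tested on simulated data. Python 3.11.15, NumPy 2.4.6, pandas 2.3.3, SciPy 1.17.1 and Matplotlib 3.10.9 were used.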

Additional observations from a re-analysis of the deposited data

How the results depend on the processing

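The share of genes with the same sign on both sides lay between 49.2 and 52.4% and the Pearson correlation between 0.01 and 0.05 over 10 settings. The highest values came from the 2039 genes left when regions above the median level were kept, with 52.4%. The same filter gave 71 genes higher and 28 lower on both sides. Of enhancer pairs 5 to 10 kb apart, 55.5% then had the same sign (Pearson correlation 0.04, 997 pairs). Enhancers of higher level were more often higher in CAF-1, which alone raises that share by an amount that was not computed. Of assigned enhancer-promoter pairs at that distance, 53.8% had the same sign (correlation 0.12, 794 pairs). The filter also gave 14.1% of genes with all enhancers of one sign, and 14.3% of the 7 heterochromatin and Polycomb genes left had the same sign. Centring each region type on its median gave 9.78% of genes with all enhancers of one sign. A pseudocount of 0.05 gave 28 genes higher and 39 lower on both sides, since it shrinks every ratio. Enhancers assigned to 1 gene gave 59 of 3008 genes higher (1.96%, product 2.46%) and 82 lower (2.73%, product 2.14%). The nearest enhancer alone gave 212 higher (4.11%, product 3.93%) and 183 lower (3.55%, product 3.20%). The 2598 genes with at least 3 enhancers gave 23 higher (0.885%, product 0.947%) and 19 lower (0.731%, product 0.498%). A limit of 0.1 gave 476 higher and 386 lower, and 0.3 gave 22 higher and 30 lower. Where no construction above shows it, the cause was not tested. Of 76 enhancer means and promoter ratios of named genes, none changed sign under centring, the median over enhancers or the pseudocount. Of these, 12 were below the limit as reported and 34 with the pseudocount, which brought 22 below it. Centring brought the enhancer means of Mcm10 and Orc6l below it (both 0.19), and the median over enhancers those of Gatsl3, Tbc1d10a (both 0.18) and Ssbp4 (0.18). No paired analysis was possible because the table holds 1 value per condition, and no library could be left out for the same reason. The filter, centring and pseudocount for enhancers of one gene and for gene lists were chosen after seeing the data.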
